A study of Mus musculus with 24 samples.

Results

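The constant genes of the antibody heavy chain encode the part of an antibody that sets its class: Ighm for IgM, Ighd for IgD, Ighg3, Ighg1, Ighg2b and Ighg2c for the IgG subclasses, Ighe for IgE and Igha for IgA. They were chosen by name in a deposited table of read counts from mouse splenic B cells. Of the 8 names, 7 had a row among the 14106 genes of the table, and each of the 7 passed the filter on low counts that left 12024 tested genes. No row is named for Ighg2c. A row named IGHG2a, the form of that gene in other mouse strains, is not one of the 8, and its counts are given beside the others and kept in the sum of heavy constant counts.

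The libraries came from poly(A) RNA of B cells activated in culture with interleukin 4 (IL-4) and lipopolysaccharide (LPS). Activation ran for 28 h before the cells were treated with 2 µM 4-hydroxytamoxifen (4-HT) for 32 h, 60 h in all. The Spt5-depleted group (3 libraries) was Supt5hFl/- Rosa26ERT2-cre/+, which pairs 1 floxed allele of the Spt5 gene with 1 null allele and adds a Cre recombinase that the drug switches on. The WT group (3 libraries) was Rosa26ERT2-cre/+ and received the same drug, so every library had Cre and 4-HT, and WT lacked both the floxed and the null allele. The Cre is expressed from the Rosa26 locus and is not restricted to B cells. The labels call the cells both mature and immature, and name neither strain nor sex. Nothing in them ties the libraries to separate animals or cultures, and the p-values therefore rest on a spread that could be technical alone.

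Spt5 is a subunit of DSIF, which travels with RNA polymerase II and acts in promoter pausing and elongation. IgM and IgD messages come from a single primary transcript that starts at the rearranged V segment and is spliced and polyadenylated either at Ighm or, further along, at Ighd. The genes downstream of Ighd have promoters of their own, each before a switch region. They make sterile germline transcripts without a V segment, and transcription through the switch region precedes class switching, after which the V segment is joined to the new constant gene. In mouse B cells LPS is known to induce germline transcription of Ighg3 and Ighg2b, and IL-4 together with LPS that of Ighg1 and Ighe. Counts per constant gene do not separate sterile from switched messages, nor membrane from secreted forms. In RefSeq's GRCm38.p6 annotation the genes lie on chromosome 12 in the order Ighm, Ighd, Ighg3, Ighg1, Ighg2b, Ighg2c, Ighe and Igha. The authors' exon lengths were not at hand, so each gene is compared with itself between groups, and levels of different genes are not ranked.

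The libraries held 17306549 to 21441575 counts in the Spt5-depleted group and 23340978 to 25649611 in the WT group. Counts of the targeted gene, Supt5, were 189, 196 and 314 in Spt5-depleted libraries and 3796, 3512 and 4666 in WT libraries. The groups also differed in X- and Y-linked RNA: Xist had 18, 28 and 40 counts in Spt5-depleted libraries and 11367 to 20130 in WT libraries, and the Y-linked gene Ddx3y had 2569 counts over the 3 Spt5-depleted libraries and 1 over the 3 WT libraries. Genotype and this division cannot be told apart in any result here. B cell markers were present in every library, with Cd79b, the signalling partner of surface immunoglobulin, at 1733 ± 161 CPM (read counts scaled by library total and TMM factor) in Spt5-depleted cells and 1663 ± 80.2 CPM in WT cells (SD, n = 3 each).

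Of the 7 heavy chain constant genes, 5 were lower in Spt5-depleted cells, 1 (Ighd) was higher and 1 (Igha) did not pass, at an adjusted p under 0.05 by edgeR's quasi-likelihood test over all 12024 genes. In the same test 62.4% of all genes passed, 31.8% higher and 30.6% lower. The median log2 fold change of the 7 genes was -1.04, against 0.00 over all tested genes. The CPM of 6 of the 7 did not overlap between groups, which was the case for 67.5% of all tested genes. Together the heavy constant rows took 1.62%, 1.52% and 1.81% of all counts in the Spt5-depleted libraries and 1.99%, 3.91% and 2.70% in the WT libraries. That share was lower in each Spt5-depleted library than in each WT library (exact permutation p = 0.10, two-sided, the smallest that 3 against 3 allows).

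**Figure D1:**
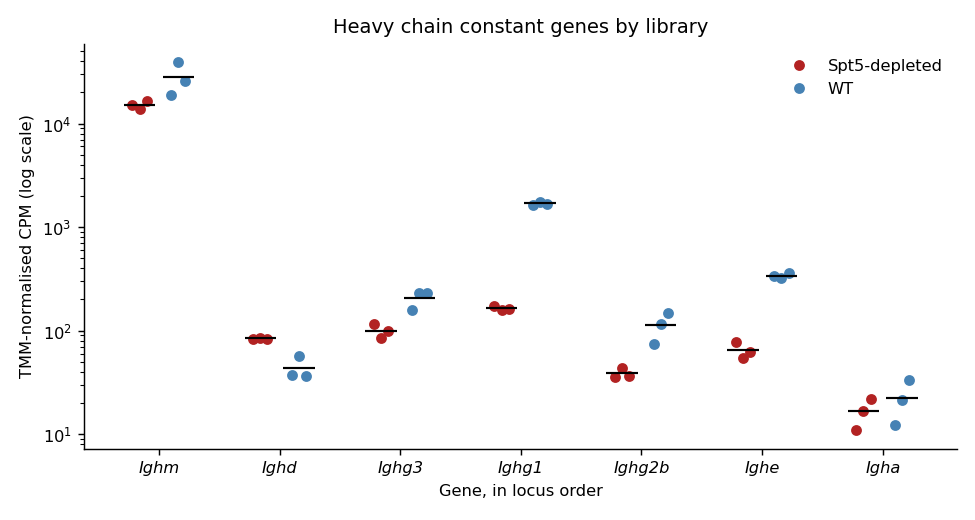
TMM-normalised CPM on a log axis of the 7 heavy chain constant genes, in locus order, with a point per library (3 Spt5-depleted in red, 3 WT in blue) and a line at each group mean. Igha overlaps between the groups, Ighd lies higher in the Spt5-depleted libraries and the other 5 genes lie lower there.

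Ighg1, the gamma 1 gene that IL-4 induces, changed most among the 7. It had 174, 159.5 and 162 CPM in the Spt5-depleted libraries and 1632, 1764 and 1672 CPM in the WT libraries. The highest library of a group was 1.09 times its lowest in Spt5-depleted cells and 1.08 times in WT cells, and the groups were far apart. The level was 10.2-fold lower in Spt5-depleted cells (log2 fold change -3.36 ± 0.09 SE, edgeR adjusted p = 1.57e-12). This was the 22nd lowest log2 fold change of the 12024 genes.

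Ighe, the epsilon gene, which IL-4 also induces, had 77.8, 54.2 and 62.2 CPM in the Spt5-depleted libraries and 336, 322 and 361 CPM in the WT libraries. It fell 5.26-fold (log2 fold change -2.39 ± 0.12 SE, edgeR adjusted p = 1.94e-09). All Spt5-depleted libraries were below all WT libraries, and the change was the 80th lowest of all genes. Relative to Ighg1, Ighe was higher in Spt5-depleted libraries. There were 44.8, 34.0 and 38.3 Ighe counts per 100 Ighg1 counts in the Spt5-depleted libraries and 20.6, 18.3 and 21.6 in the WT libraries. The log2 ratio of Ighe to Ighg1 was higher by 0.95 in Spt5-depleted cells, without overlap (exact permutation p = 0.10, adjusted p = 0.15 over the 9 ratios compared).

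Ighg3 and Ighg2b, the gamma genes that LPS induces, fell by smaller factors. Ighg3 had 116, 84.2 and 99.4 CPM in the Spt5-depleted libraries and 159, 229 and 229 CPM in the WT libraries. Its log2 fold change was -1.04 ± 0.16 SE (edgeR adjusted p = 0.000223). Ighg2b had 35.7, 43.4 and 36.8 CPM in the Spt5-depleted libraries and 73.7, 115 and 148 CPM in the WT libraries. Neither gene overlapped between groups, although WT varied by 2.01-fold between its lowest and highest library for Ighg2b. The log2 fold change of Ighg2b was -1.54 ± 0.24 SE (edgeR adjusted p = 0.00107). Per 100 Ighg1 counts there were 66.8, 52.8 and 61.3 Ighg3 counts in the Spt5-depleted libraries and 9.73, 13.0 and 13.7 in the WT libraries (exact permutation p = 0.10, adjusted p = 0.15 over the 9 ratios). Ighg2b likewise stood at 20.5, 27.2 and 22.7 counts per 100 Ighg1 counts in the Spt5-depleted libraries and 4.52, 6.54 and 8.87 in the WT libraries, with the same p-values. Measured against Ighg1 in the same library, Ighe, Ighg3 and Ighg2b were therefore each higher in every Spt5-depleted library than in any WT library. Ighg1 fell most, so these ratios restate the smaller falls of the other genes and are no separate result. The gamma genes resemble each other in sequence, and how reads that map to several places were counted is not given in the sources used here, so the split between them is uncertain.

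The IGHG2a row had 32.2, 27.0 and 23.5 CPM in the Spt5-depleted libraries and 29.9, 49.3 and 132 CPM in the WT libraries. WT replicate 3 stood far above the others, the groups overlapped, and the difference did not pass (log2 fold change -1.36 ± 0.64 SE, edgeR adjusted p = 0.135). Without WT replicate 3 the log2 fold change was -0.53 (edgeR adjusted p = 0.12). Igha, the IgA gene, had 10.9, 16.9 and 22.0 CPM in the Spt5-depleted libraries and 12.2, 21.2 and 33.2 CPM in the WT libraries. These ranges overlapped, and the log2 fold change of -0.41 ± 0.45 SE did not pass (edgeR adjusted p = 0.461). In WT replicate 3, Igha, Ighg2b and the IGHG2a row were all at their highest level. Without it the log2 fold change of Igha was 0.00 (edgeR adjusted p = 0.994).

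**Figure D2:**
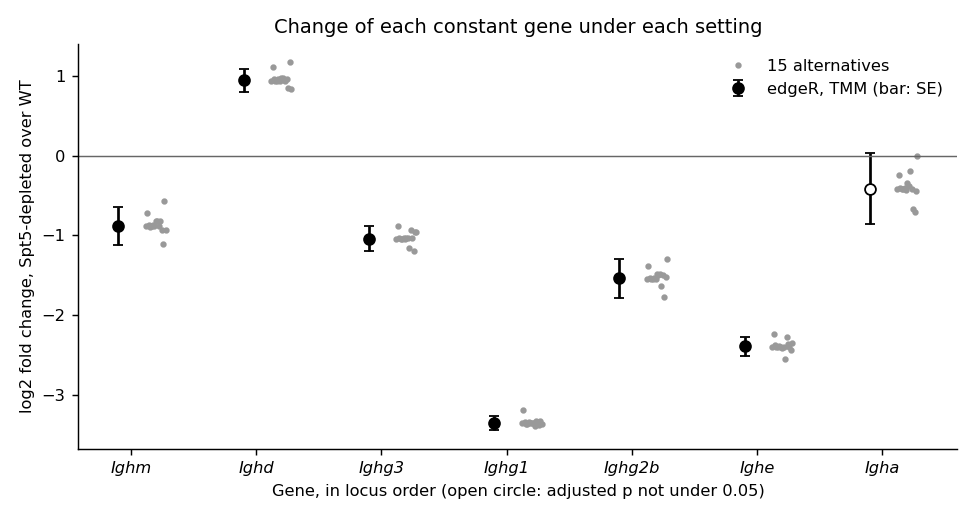
Log2 fold change (Spt5-depleted over WT) of each constant gene in locus order, with its SE from edgeR (black; open where adjusted p was not under 0.05) and its values under 15 alternative settings (grey). Ighg1 stays between -3.39 and -3.20 and Ighd between 0.83 and 1.17, while Igha ranges from -0.71 to 0.00.

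Ighm, the gene of the IgM heavy chain, held most heavy constant counts in both groups. It had 15139, 13872 and 16341 CPM in the Spt5-depleted libraries and 18707, 38933 and 25859 CPM in the WT libraries. The Spt5-depleted libraries were all below the WT libraries, but WT spread 2.08-fold from lowest to highest. Ighm fell by 0.88 on the log2 scale (SE 0.24, edgeR adjusted p = 0.0117). The call was lost without Spt5-depleted replicate 1 (adjusted p = 0.0653), and the log2 fold change was -0.56 without WT replicate 2, the highest library (adjusted p = 0.00318).

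Other immunoglobulin rows were high in WT replicate 2 as well. The 97 heavy chain V segment rows summed to 444, 442 and 529 CPM in the Spt5-depleted libraries and 716, 1564 and 823 CPM in the WT libraries. The 4 J segment rows summed to 30.6, 29.9 and 33.8 CPM in the Spt5-depleted libraries and 50.6, 96.3 and 54.9 CPM in the WT libraries. Igkc, the kappa light chain constant gene, had 5993, 5095 and 5239 CPM in the Spt5-depleted libraries and 6120, 9244 and 6387 CPM in the WT libraries. Igkc passed as lower by 0.41 on the log2 scale (edgeR adjusted p = 0.0242), without overlap between the groups. The 10 plasma cell markers, of which 2 rose and 4 fell, summed to 3172 to 3394 CPM in Spt5-depleted libraries and to 4069, 5537 and 4039 CPM in the WT libraries, again highest in WT replicate 2. Their part in the result for Ighm was not tested. Highly expressed genes also leaned lower at large: among 578 genes over 300 CPM, 293 were lower in Spt5-depleted cells and 117 higher. Over all tested genes 30.6% were lower and 31.8% higher.

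Ighd, which shares its promoter and primary transcript with Ighm, changed in the other direction. It had 83.0, 85.7 and 83.5 CPM in the Spt5-depleted libraries and 37.7, 56.5 and 36.8 CPM in the WT libraries. The 3 Spt5-depleted values were nearly the same and all above WT. Ighd rose by 0.95 on the log2 scale (SE 0.14, edgeR adjusted p = 0.000118). Per 1000 Ighm counts there were 5.48, 6.18 and 5.11 Ighd counts in the Spt5-depleted libraries and 2.01, 1.45 and 1.42 in the WT libraries. The ratio averaged 5.59 ± 0.54 in Spt5-depleted cells and 1.63 ± 0.33 in WT cells (SD, n = 3 each), a difference of 1.79 in the log2 ratio (exact permutation p = 0.10, adjusted p = 0.15 over the 9 ratios). A ratio of counts within a library does not depend on how libraries are scaled.

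The other genes also differed in how they stood to Ighm. Per 1000 Ighm counts there were 11.5, 11.5 and 9.93 Ighg1 counts in the Spt5-depleted libraries and 87.2, 45.3 and 64.7 in the WT libraries. Ighe had 5.14, 3.90 and 3.81 counts per 1000 Ighm counts in the Spt5-depleted libraries and 18.0, 8.28 and 13.9 in the WT libraries. Both ratios were without overlap (exact permutation p = 0.10, adjusted p = 0.15). The ratios of Ighg3, Ighg2b and Igha to Ighm overlapped between the groups, with log2 differences of -0.21, -0.67 and 0.45 (exact permutation p = 0.40, 0.20 and 0.30).

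**Figure D3:**
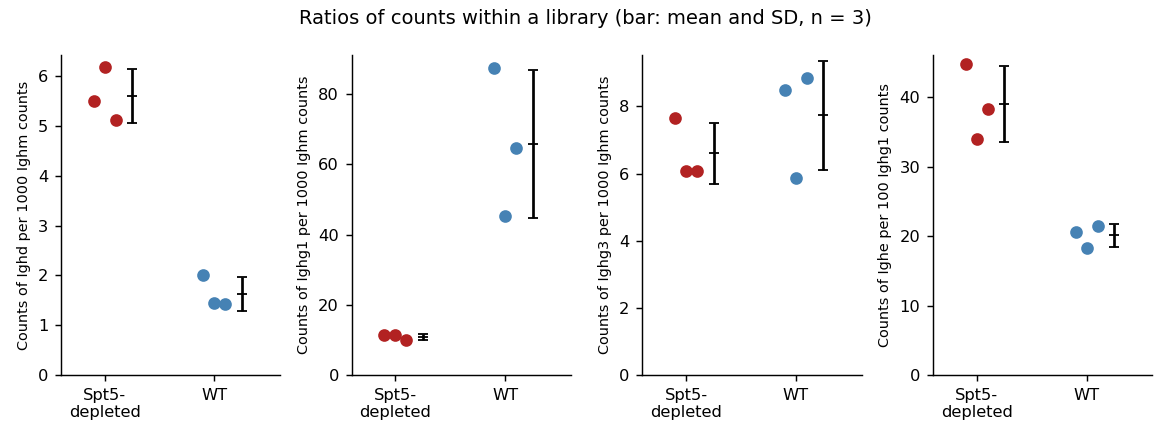
Counts of one constant gene per 1000 Ighm counts or per 100 Ighg1 counts in the same library, with a point per library (Spt5-depleted in red, WT in blue) and the mean and SD beside them (n = 3 each). Ighd to Ighm and Ighe to Ighg1 are higher in every Spt5-depleted library, Ighg1 to Ighm is lower, and Ighg3 to Ighm overlaps.

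As shares of all heavy constant counts, Ighm made up 96.6%, 96.7% and 97.1% in the Spt5-depleted libraries and 89.1%, 93.8% and 90.8% in the WT libraries. The share of Ighm was thus higher in Spt5-depleted cells while its CPM was lower. The gamma, epsilon and alpha rows together made up 2.85%, 2.68% and 2.41% in the Spt5-depleted libraries and 10.7%, 6.03% and 9.05% in the WT libraries (exact permutation p = 0.10). The share of Ighg1 was 1.11%, 1.11% and 0.964% in the Spt5-depleted libraries and 7.78%, 4.25% and 5.87% in the WT libraries. Most of that difference came with Ighg1, whose mean share differed by -4.91 percentage points, against -5.94 for the gamma, epsilon and alpha rows together. Ighe took 0.415% ± 0.071 in Spt5-depleted cells and 1.22% ± 0.42 in WT cells, and Ighd 0.541% ± 0.052 in Spt5-depleted cells and 0.148% ± 0.027 in WT cells (SD, n = 3 each). Ighm, Ighd, Ighg1 and Ighe did not overlap between groups (exact permutation p = 0.10 each, adjusted p = 0.175 over the 7 genes). The shares of Ighg3, Ighg2b and Igha overlapped (exact permutation p = 0.60, 0.20 and 0.20). Counting error is small beside this spread: the widest exact (Clopper-Pearson) 95% binomial interval relative to its share was that of Igha in Spt5-depleted replicate 1, a share of 0.0695% with limits of 0.0601% and 0.0799%. Reads carry no molecular identifiers that the files show, so such intervals cover counting error only.

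With Ighm left out of the sum, the make-up of the remaining 9479 to 11320 counts per Spt5-depleted library and 54174 to 63472 counts per WT library could be seen directly. Ighg1 made up 32.8%, 33.9% and 33.1% of them in the Spt5-depleted libraries and 71.6%, 69.0% and 64.0% in the WT libraries. Ighd took 15.7%, 18.2% and 17.0% in the Spt5-depleted libraries and 1.65%, 2.21% and 1.41% in the WT libraries. Ighg3 took 21.9%, 17.9% and 20.3% in the Spt5-depleted libraries and 6.96%, 8.96% and 8.76% in the WT libraries. The share of Ighg3 was therefore slightly lower with Ighm in the sum and higher without it, and the same held for Ighg2b. Ighe had 13.0% ± 1.62 in Spt5-depleted cells and 13.7% ± 1.08 in WT cells (SD, n = 3 each; exact permutation p = 0.60), so its share of the counts other than Ighm differed by less than the spread between libraries.

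**Figure D4:**
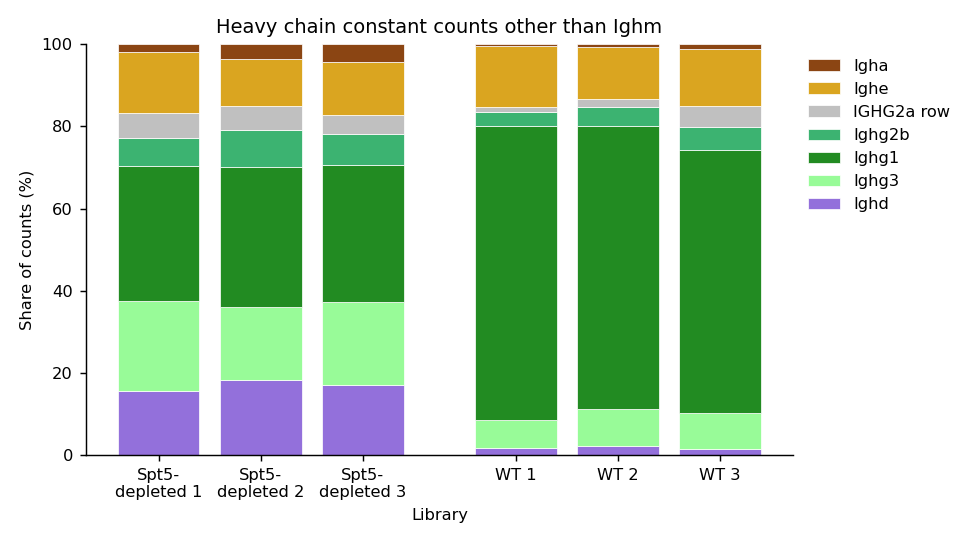
Make-up of the heavy chain constant counts other than Ighm in each library, in percent, for the 3 Spt5-depleted and the 3 WT libraries. Ighg1 takes 32.8% to 33.9% in Spt5-depleted libraries and 64.0% to 71.6% in WT libraries, while Ighd and Ighg3 take larger shares in Spt5-depleted libraries.

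The authors' deposited table gives log2 fold changes of -3.37 for Ighg1, -2.40 for Ighe, -1.55 for Ighg2b, -1.05 for Ighg3, -0.89 for Ighm, -0.43 for Igha and 0.94 for Ighd. The authors' deposited table has adjusted p-values of 0.468 for Igha and 0.0103 for Ighm.

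The genes whose profiles were most like those of 3 members were found by the root mean square difference between log2 CPM profiles, each centred on its mean over the 6 libraries, over 9237 genes whose CPM averaged 5 or more. For Ighm they were the V segments Ighv3-8, Ighv14-2 and Igkv4-63, at differences of 0.08, 0.09 and 0.09. Each was highest in WT replicate 2, with 18.6, 20.1 and 26.6 CPM there. For Ighg1 they were Il1r2, a decoy receptor for interleukin 1 (0.12), Gpt2, an alanine aminotransferase (0.13), and Asns, the asparagine synthetase (0.17). Il1r2 had 16.0, 15.0 and 16.6 CPM in the Spt5-depleted libraries and 129, 160.0 and 149 CPM in the WT libraries. For Ighd they were Tbc1d8b, Klhl24 and Rcor3 (0.06, 0.08 and 0.09). Klhl24 had 55.5, 52.5 and 55.4 CPM in the Spt5-depleted libraries and 26.5, 34.0 and 22.9 CPM in the WT libraries. A difference between the groups is part of each such profile.

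Genes that act on the heavy chain locus were counted in 5 lists with 82 tested genes in all. Of these 40 were lower in Spt5-depleted cells and 16 higher (median log2 fold change -0.20, against 0.00 over all tested genes). Among all tested genes 30.6% were lower and 31.8% higher. In the list of cytokine and LPS signals to germline promoters 9 of 21 genes were lower and 8 higher (median -0.11). Il4ra, the receptor chain through which IL-4 acts, had 132 ± 3.60 CPM in Spt5-depleted cells and 588 ± 44.8 CPM in WT cells (SD, n = 3 each; log2 fold change -2.16, edgeR adjusted p = 1.38e-10). Stat6, the transcription factor that the receptor activates, had 136 ± 2.33 CPM in Spt5-depleted cells and 138 ± 3.79 CPM in WT cells (SD, n = 3 each; edgeR adjusted p = 0.833). Nfkb1, an NF-kB subunit, was at -1.64, Jak1, a kinase of the IL-4 receptor, at 0.77, and Tlr4, the LPS receptor, at 0.92 (edgeR adjusted p = 1.01e-09, 2.03e-06 and 7.79e-06).

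Of 19 factors of heavy chain enhancers and promoters 8 were lower and 3 higher (median log2 fold change -0.12). Counted in either direction, the part called was near the 62.4% of all tested genes. Pou2af1, the B cell coactivator of octamer-binding factors, had 797 ± 29.6 CPM in Spt5-depleted cells and 1690 ± 140 CPM in WT cells (SD, n = 3 each; log2 fold change -1.08, edgeR adjusted p = 1.47e-07). Irf8 stood at -1.52, Spib, an ETS family factor, at 1.15, and Id2, which inhibits E proteins, at 2.22 (edgeR adjusted p = 3.17e-09, 1.32e-07 and 1.01e-09).

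Of 13 genes that process the IgM, IgD and secretory messages or regulate secretion 6 were lower and 2 higher (median log2 fold change -0.22). In either direction this was again near the 62.4% called among all tested genes. Zfp318, which is needed in mice for IgD expression from the shared transcript, had 82.3 ± 4.34 CPM in Spt5-depleted cells and 56.6 ± 10.9 CPM in WT cells (SD, n = 3 each; log2 fold change 0.54, edgeR adjusted p = 0.00181). Eaf1, a partner of ELL elongation factors, was the other riser (0.54), and Srsf3 and Ptbp1, regulators of splicing, were at -1.09 and -0.82 (edgeR adjusted p = 3.81e-05, 4.79e-08 and 1.02e-06). Ell2, an elongation factor that promotes the secreted form of the heavy chain message, had 235 ± 15.0 CPM in Spt5-depleted cells and 274 ± 62.1 CPM in WT cells (SD, n = 3 each; edgeR adjusted p = 0.185).

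Of 22 genes of switch region processing 13 were lower and 3 higher (median log2 fold change -0.41), beside 30.6% and 31.8% of all tested genes. H2afx, the histone variant that marks DNA breaks, was at 0.63, and Hmces, which shields abasic sites, at 0.60 (edgeR adjusted p = 1.69e-05 and 0.0173). Of 7 tested partners of the heavy chain in the receptor and in secretion 4 were lower and 0 higher (median -0.41). They were Igkc, Iglc2, Iglc3 (-0.98) and Mzb1 (-0.80), a chaperone of IgM assembly. Cd79a, Cd79b and Igj, the J chain of secreted IgM, did not pass. In this list 2 genes were higher and 2 lower with libraries scaled by their totals alone, and 2 were lower without Spt5-depleted replicate 2 or replicate 3. The rows of Stat6, Jak1 and Ptbp1 carry a name suffix (IMP_OVL) that may stand for an overlapping gene.

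**Figure D5:**
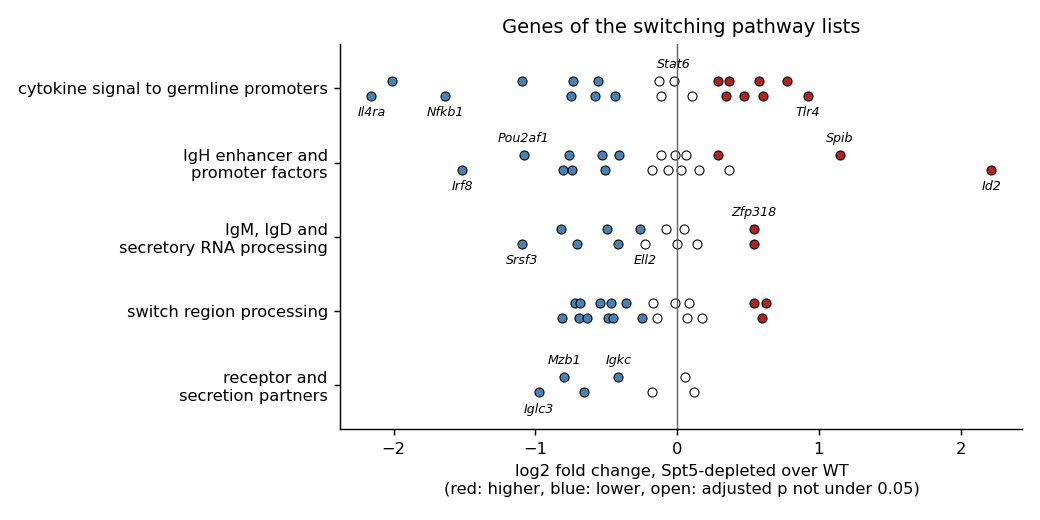
Log2 fold change (Spt5-depleted over WT) of the genes reported from the 5 pathway lists, with a point per gene, filled where the adjusted p was under 0.05. Il4ra (-2.16) lies lowest and Id2 (2.22) highest among them.

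Markers of other cells that a spleen culture can hold were low beside those of B cells. The 10 B cell markers summed to 4373 to 5062 CPM in Spt5-depleted libraries and 5388 to 5457 CPM in WT libraries. Of these markers 1 was higher and 3 lower, beside 31.8% and 30.6% of all tested genes. The 10 T cell markers summed to 161 to 186 CPM in Spt5-depleted libraries and 183 to 212 CPM in WT libraries, mostly from Thy1, and 0 of 10 passed. Macrophage and monocyte markers summed to 28.2 to 63.4 CPM in Spt5-depleted libraries and 23.7 to 32.7 CPM in WT libraries, led by Cd68, with 4 of 6 tested genes higher. Dendritic cell markers, led by Flt3, summed to 98.0 to 99.6 CPM in Spt5-depleted libraries and 95.6 to 113 CPM in WT libraries, with 2 of 4 higher and 1 lower. Natural killer cell markers, led by Gzma, summed to 6.70 to 12.0 CPM in Spt5-depleted libraries and 11.9 to 18.6 CPM in WT libraries, with 1 of 3 lower. Neutrophil markers, led by S100a9, summed to at most 3.93 CPM and red cell markers, led by Klf1, to at most 0.545 CPM in any library. Fcgr1, Itgax, Klrb1c and Klrk1, named here for that reason, were among the markers at 0 counts in 1 or more libraries. The part of these cells in the results for the constant genes was not tested. In such bulk samples, fewer cells of a type and less RNA per cell cannot be told apart.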

How the data were processed

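The deposited table holds whole read counts per gene for 6 libraries, not normalised by the authors, and the authors' log2 fold changes and adjusted p-values. Per the labels' protocols, a Lexogen SENSE mRNA-seq kit was used on Trizol-extracted RNA. The submitters' processing notes name mm9 as the build, featureCounts 1.5.0-p1, TopHat, Bowtie2 2.1.0, cutadapt 1.10 and DESeq2 1.10.1. Annotation and strand setting: not given in the sources used here. No gene in the table has fewer than 10 counts over the libraries. The 18 samples of other assays were not analysed here.

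The counts were fitted with edgeR 4.0.16 in R 4.3.3 (filterByExpr, TMM, robust quasi-likelihood F test, two-sided, Benjamini-Hochberg over all tested genes, threshold 0.05), which was tested on simulated data. The simulated data held few changed genes and gave all genes the same dispersion. They therefore cannot test TMM where most genes are called, nor genes with a wide spread between replicates. SEs were taken from the F statistic. TMM rests on most genes being unchanged; with library totals alone the median log2 fold change over all genes was 0.16 in place of 0.00. Shares and ratios were compared by exact permutation tests over libraries. Alternatives used limma 3.58.1 and DESeq2 1.42.0. The constant genes and lists were chosen with earlier results of these data known. The rule for naming covered all constant genes, 7 set genes and up to 2 rises and 2 falls with the smallest p per list. It also covered the leading marker of each cell type and the 3 nearest profiles of Ighm, Ighg1 and Ighd. A few genes of the lists, also ones that this rule covers, enter the counts but are neither named nor plotted here. Other immunoglobulin rows and Xist and Ddx3y were added after their values were seen. Replicates differed by more than sampling noise, and each library was counted as 1 sample. Chi-square per degree of freedom was 6.45 to 10.8 between Spt5-depleted replicates and 28.0 to 33.2 between WT replicates. The fit took the same dispersion of a gene for both groups.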

Additional observations from a re-analysis of the deposited data

How the results depend on the processing

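Under 15 alternatives to the edgeR fit (other scalings, filters and tests, the replicate number as a block, and each library left out) Ighd, Ighg3, Ighg1, Ighg2b and Ighe kept direction and call. With 1 library left out, log2 fold changes ran from -1.10 to -0.56 for Ighm, 0.83 to 1.17 for Ighd, -1.20 to -0.93 for Ighg3, -3.39 to -3.33 for Ighg1, -1.78 to -1.30 for Ighg2b, -2.55 to -2.28 for Ighe and -0.71 to 0.00 for Igha. Ighm lost its call without Spt5-depleted replicate 1 (log2 fold change -0.88). Between 4 and 5 constant genes were then lower and 1 higher. With the replicate block Igha passed (log2 fold change -0.38, adjusted p = 0.0106), and 7369 genes were called in place of 7504. Over 9244 genes same-numbered libraries did not deviate together (correlations 0.01, -0.08 and -0.09), which cannot exclude that the numbers pair them. Igha itself rose with the replicate number in both groups. It had 10.9, 16.9 and 22.0 CPM in the Spt5-depleted libraries and 12.2, 21.2 and 33.2 CPM in the WT libraries. The cause of its call with the block was not tested.

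With library totals alone 64.8% of calls were higher, against 50.9% with TMM. Then 5 enhancer and promoter factors, 6 genes of switch region processing and 2 receptor partners were higher, and 2 partners were lower. Leaving out 1 library gave 1 to 3 higher genes of switch region processing (1 without Spt5-depleted replicate 1 or WT replicate 3), and 0 to 1 higher (1 without WT replicate 2) and 2 to 4 lower receptor partners.

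With Ighm out of the denominator, the differences in share were 15.2 percentage points for Ighd, 11.8 for Ighg3 (reversed), -34.9 for Ighg1, 3.35 for Ighg2b (reversed), 2.50 for Igha and -15.2 for the gamma, epsilon and alpha sum, which was -0.187 points as a share of all counts. Without Ighg1 in numerator and denominator, a setting chosen after seeing the data, that sum differed by -1.19 points. Leaving the IGHG2a row out, also chosen later, moved no share by more than the spread. Without 1 library, differences ran from 4.48 to 6.83 points for Ighm, 0.364 to 0.415 for Ighd, -0.141 to -0.0150 for Ighg3, -5.76 to -4.00 for Ighg1, -0.187 to -0.0652 for Ighg2b, -1.02 to -0.607 for Ighe, 0.0182 to 0.0512 for Igha and -7.22 to -4.89 for that sum. Depth limits Igha most, with 195 counts in its lowest library.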

Other observations

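The rows of V and J segments and of the kappa light chain were also counted relative to Ighm in the same library. There were 29.3, 31.9 and 32.4 heavy chain V segment counts per 1000 Ighm counts in the Spt5-depleted libraries. The WT libraries had 38.3, 40.2 and 31.8, which overlapped. The J segment rows had 2.02, 2.16 and 2.07 counts per 1000 Ighm counts in the Spt5-depleted libraries and 2.70, 2.47 and 2.12 in the WT libraries, and overlapped too. Igkc had 396, 367 and 321 counts per 1000 Ighm counts in the Spt5-depleted libraries. In the WT libraries it had 327, 237 and 247, which also overlapped. The 97 kappa V segment rows had 265, 271 and 237 counts per 1000 Ighm counts in the Spt5-depleted libraries. In the WT libraries they had 229, 175 and 166, without overlap between the groups.

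The 2 rows for T cell receptor beta constant regions had 23, 99 and 50 counts in the Spt5-depleted libraries and 123, 100 and 124 counts in the WT libraries. Spt5-depleted replicate 1 was the lowest of the 6 libraries.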
